A study of Mus musculus with 2 samples.

Results

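The genes Eif4a1, Senp3, Cd68, Fxr2, Mpdu1, Sox15, Tnfsf13 and the 3′ end of Tnfsf12 lay inside 1 RNA Pol II anchor of control embryonic stem cells (ESCs), at chr11:69441121-69500430 of the mm9 mouse genome. An anchor here is a peak of RNA Pol II ChIA-PET reads that was joined to another peak by paired-end tags (PETs), where each PET links 2 DNA fragments that were ligated to each other after pull-down of RNA Pol II. The anchor was chosen from these same data, as the control anchor with the most called intrachromosomal partners, and every deposited pair with an end on it was taken, whatever its number of PETs. These were 206 of 128267 pairs in control and 60 of 44328 in Ronin knockout. The 8 genes were 8 of 22238 annotated protein-coding gene names.

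RNA Pol II ChIA-PET was compared between control and Ronin knockout ESCs, both CreERT2; Ronin flox/flox, so that the control cells carried the Cre and the floxed alleles too. Control cells received ethanol for 4 days and knockout cells tamoxifen for 4 days, which switches on the Cre. Each condition was deposited as 1 library, made by the authors from merged experiments, so no difference below has a replicate check, no test was run, and all intervals are exact 95% intervals that cover counting error only. The files hold contacts, not RNA or protein, and cannot show whether Ronin itself was gone. The libraries held 156097 PETs in control and 65276 in knockout. Of these, 15.8% and 18.6% were intrachromosomal, and 98.3% and 97.9% of pairs rested on 1 PET.

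All 12 ESC markers listed, Pou5f1 and Nanog among them, had called intrachromosomal PETs in control, summing to 54. In knockout the sum was 24, where such PETs of the whole library stood at 50.2% of control. Of the 12 markers 10 had fewer in knockout, 1 more and 1 the same number. Utf1, Lin28a and Dnmt3b had 0 there, and Sall4 had 1 in control and 3 in knockout. With interchromosomal pairs added all 12 had PETs in both libraries, summing to 832 and 274. Of the 22238 annotated protein-coding gene names, 9663 had called intrachromosomal PETs in at least 1 library, and 73.0% of these had fewer in knockout. None of 7 fibroblast markers and none of 5 primitive endoderm markers had any, and with interchromosomal pairs added the endoderm markers summed to 4 and 8 PETs. Of 7 annotated macrophage markers, Cd68 had 29 and 7 called intrachromosomal PETs, which are those of the whole anchor, and the defining marker Csf1r had 1 interchromosomal PET in each library while Emr1, Itgam, Cd14, Lyz2 and Ptprc had 0.

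Eif4a1 encodes the DEAD-box RNA helicase of the eIF4F complex, which unwinds the 5′ ends of mRNAs so that ribosomes can load. Senp3 encodes a protease of the nucleolus that removes SUMO from proteins and takes part in ribosome maturation. Cd68 encodes a heavily glycosylated lysosomal membrane protein of the LAMP family and is best known as a macrophage marker. Fxr2 encodes an RNA-binding relative of the fragile X protein FMRP, Mpdu1 a protein needed to use dolichol-linked mannose in glycosylation, and Sox15 an HMG-box transcription factor. Tnfsf12 and Tnfsf13 encode the TNF-family ligands TWEAK and APRIL. RNA Pol II gathers at the starts of active genes, and ligation of such sites to each other is what ChIA-PET counts as promoter contacts.

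The genes followed each other closely along the chromosome. Fxr2 (chr11:69446492-69466799) and Sox15 (chr11:69468816-69470229) lay on the plus strand. Mpdu1 (chr11:69470199-69476144), Cd68 (chr11:69477715-69479655), Eif4a1 (chr11:69480438-69485925), Senp3 (chr11:69486612-69495586) and Tnfsf13 (chr11:69496348-69499286) lay on the minus strand, all complete inside the anchor. Tnfsf12 (chr11:69499752-69509351, minus strand) had 7.07% of its length in the control anchor and 26.4% in the knockout anchor, and its start lay outside both. The same held for the overlapping readthrough gene BC096441, with 32.2% and 45.9% of its length inside. The microRNA genes Mir467f and Mir1934 and the small nucleolar RNA genes SNORA67, snoU6-77 and SNORA48, which lie within Eif4a1, were inside too. A PET on this anchor cannot be given to one of these genes rather than another.

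The promoter windows of Eif4a1, Senp3 and Cd68 are shown because these are the genes after which the anchor is named, packed so closely that the deposited peak did not separate them. Sequences are RefSeq windows of 300 bases, from 250 before to 50 after the annotated start, found by symbol for 7 of the 8 genes in a table of the GRCm38.p6 build. All 8 windows, 2 of them for Senp3, matched the mm9 anchor sequence without a change, which gave the mm9 positions. Capitals mark the GC box GGGCGG, the CCAAT box CCAAT and the E-box CACGTG on either strand, none of which overlapped another here.
Eif4a1, chr11:69485876-69486175, minus strand: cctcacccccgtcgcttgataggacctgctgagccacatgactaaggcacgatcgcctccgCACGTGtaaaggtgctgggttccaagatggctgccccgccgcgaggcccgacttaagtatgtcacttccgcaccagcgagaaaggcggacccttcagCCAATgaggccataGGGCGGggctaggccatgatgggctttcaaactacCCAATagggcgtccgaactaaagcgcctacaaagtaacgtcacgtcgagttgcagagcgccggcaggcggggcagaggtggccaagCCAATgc
Senp3, chr11:69495537-69495836, minus strand: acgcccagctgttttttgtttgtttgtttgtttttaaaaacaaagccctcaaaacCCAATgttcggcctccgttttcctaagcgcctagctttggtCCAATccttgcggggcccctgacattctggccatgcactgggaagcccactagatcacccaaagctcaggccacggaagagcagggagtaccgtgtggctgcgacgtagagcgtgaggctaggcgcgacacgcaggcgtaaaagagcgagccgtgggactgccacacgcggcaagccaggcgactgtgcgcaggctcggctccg
Cd68, chr11:69479623-69479922, minus strand: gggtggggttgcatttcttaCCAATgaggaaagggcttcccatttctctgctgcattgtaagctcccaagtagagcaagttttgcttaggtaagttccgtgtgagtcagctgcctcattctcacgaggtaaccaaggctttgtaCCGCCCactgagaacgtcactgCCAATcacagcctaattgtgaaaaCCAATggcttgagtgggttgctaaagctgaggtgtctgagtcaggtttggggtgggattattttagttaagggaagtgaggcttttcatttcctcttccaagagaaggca
The Eif4a1 window held 3 CCAAT boxes, 1 GC box and 1 E-box, and the Cd68 window 3 CCAAT boxes and 1 GC box. The first Senp3 window held 2 CCAAT boxes and the second, at chr11:69495423-69495722, 1 GC box. Fxr2 had 2 GC boxes, Mpdu1 and Tnfsf13 1 each, and Sox15 had none of these letters. Of 32817 RefSeq promoter windows, 35.6% held a GC box, 37.4% a CCAAT box, 7.15% an E-box and 13.6% a TATA box TATAAA, which none of the 8 windows had. GC content ran from 47.7% for Cd68 to 71.3% for Fxr2, against a median of 52.7% over all windows.

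Ronin (Thap11) is a zinc-finger protein that binds DNA through the Ronin-binding motif, a run of 15 bases. The anchor held 0 exact copies and 0 copies with 1 mismatch on either strand, which says only that these letters are not in the interval. The closest sequences had 2 mismatches, and they are shown beside the exact copy in the neighbouring Trp53 and Wrap53 anchor, with the 15 bases in capitals.
Trp53 and Wrap53 anchor, chr11:69392894-69392908, plus strand, 0 mismatches: ggtttCTGGGAGTTGTAGTCtgaac
Anchor of Eif4a1, chr11:69441250-69441264, minus strand, 2 mismatches: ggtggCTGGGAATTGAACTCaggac
Anchor of Eif4a1, chr11:69456765-69456779, plus strand, 2 mismatches: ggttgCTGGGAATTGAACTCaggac
Anchor of Eif4a1, chr11:69488784-69488798, minus strand, 2 mismatches: gcgtgCTGGGAATTGAACTCtgttt
Another copy with 2 mismatches, at chr11:69458769-69458783, had the same letters as the one at chr11:69456765-69456779. The 15 bases were identical in all the copies with 2 mismatches, and all but the one at chr11:69488784-69488798 shared the letters shown after them too. The share of all anchors with such a copy was not counted. Whether Ronin binds these copies, and whether they belong to a dispersed repeat, was not tested. Over all control anchors 1.08% held an exact copy, and 4.42% of the 181 anchors within 1.2 times the width of this one did. With 1 mismatch allowed these shares were 3.38% and 16.0%.

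The anchor was present as 1 peak in both libraries, 59.3 kb wide in control and 61.2 kb wide in knockout, where it reached to chr11:69502285. In control 208 PETs linked it to 206 partner anchors, and in knockout 61 PETs linked it to 60 partners. The count deposited for the peak itself was 214 in control and 65 in knockout, 6 and 4 above its linking PETs. Over all anchors that count equalled the linking PETs for 95.2% in control and 95.3% in knockout. It is therefore no separate measure of RNA Pol II signal. All but 2 of its control pairs and all but 1 of its knockout pairs had a single PET, since 204 and 59 pairs rested on 1. Per 10 kb of its width the anchor had 35.1 linking PETs in control and 9.97 in knockout.

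Intrachromosomal PETs numbered 37 in control, from 36 partners, and 7 in knockout, from 6 partners. Of these partners 28 in control, with 29 PETs, and all 6 in knockout had an adjusted p under 0.05 in the authors' own table, the call used here. Over all intrachromosomal pairs 94.1% in control and 97.9% in knockout passed that call, so that passing it sets few pairs apart. The paper kept the term high-confidence for pairs with more independent PETs than any pair of this anchor had, which was at most 2. Interchromosomal PETs numbered 171 in control, from 170 partners, and 54 in knockout, from 54 partners. Of those partners 121 and 53 were called, where 90.9% and 96.7% of all interchromosomal pairs were. Intrachromosomal PETs made up 17.8% (12.8 to 23.7) of the anchor's PETs in control and 11.5% (4.74 to 22.2) in knockout, and both intervals hold the share of the whole library.

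With called intrachromosomal and all interchromosomal pairs, knockout PETs were 30.5% of control, and 29.3% (21.7 to 39.2) over all pairs. The total of the whole library was 41.8% of control. Intrachromosomal PETs were 18.9% (7.12 to 43.0) of control, where the library stood at 49.2%. Called intrachromosomal partners were 21.4% (7.25 to 52.7), where the library stood at 42.5%. Interchromosomal PETs were 31.6% (22.8 to 43.1), where the library stood at 40.4%, a value inside the interval. Called interchromosomal PETs were 43.4% (30.9 to 60.4), where the library stood at 42.9%, and called interchromosomal partners 43.8% (31.1 to 61.0), where it stood at 36.0%. After scaling both libraries to equal totals the anchor kept 70.1% (51.8 to 93.7) of its PETs, and 68.4% (50.6 to 91.4) after scaling by the median of the 13935 merged anchors present in both libraries. The choice of the anchor used its control intrachromosomal pairs, which are part of its total too, so the intrachromosomal, total and scaled values stand as a description and their intervals do not allow for that choice.

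The fall was set beside anchors with a similar number of PETs. Unscaled, 85.3% of 3116 merged anchors with at least 20 control PETs were at least 2-fold lower in knockout, as this one was. After scaling to equal totals 12.4% were at least 2-fold lower, and this one was not. Among 90 merged anchors with control PETs within 1.2 times those of this one, knockout PETs were at a median of 32.0% of control, with quartiles of 27.8% and 37.6% and a range from 0 to 77.0%. Of them 31, or 34.4%, were at or below its 29.3%, which lay between the lower quartile and the median of these well-linked anchors.

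**Figure D1:**
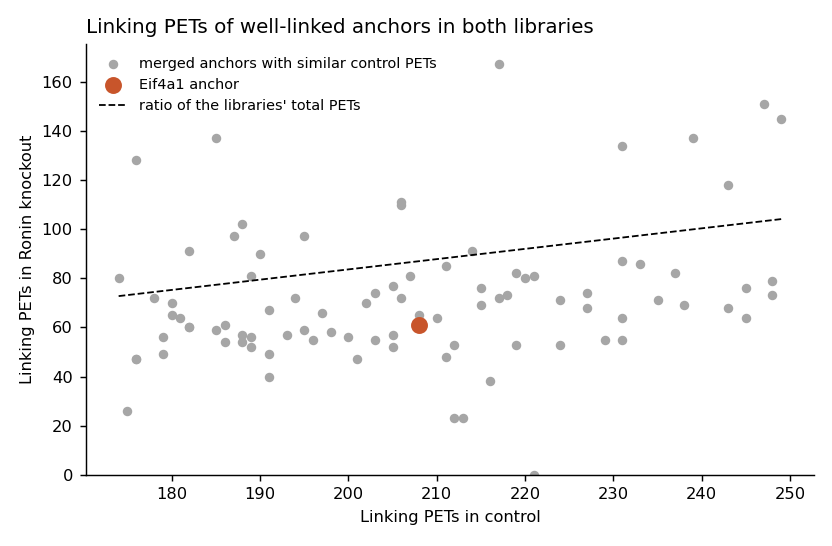
Linking PETs in control (x axis) and Ronin knockout (y axis) for the 90 merged anchors with control PETs within 1.2 times those of the Eif4a1 anchor, 1 point each, with the large point for the Eif4a1 anchor at 208 and 61 PETs and the dashed line at the ratio of the libraries' totals, 41.8%. Most points lie under the line, and the Eif4a1 anchor lies among them.

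In control the anchor ranked 1 by called intrachromosomal partners among 10925 anchors of called pairs, the property it was chosen for. By all intrachromosomal partners it ranked 2, by interchromosomal partners 76 and by linking PETs 107, of 27757 anchors. Only 148 control anchors were wider, where the median width was 3.28 kb. Among the 181 anchors of like width the median was 7 intrachromosomal partners, 81 interchromosomal partners and 89 linking PETs, with 32 to 655 PETs at the extremes. There 11 anchors, this one included, had as many linking PETs or more, and no other had as many intrachromosomal partners. Counted per 10 kb of width its 4.72 called intrachromosomal partners ranked 2424, and 103 among the 3879 anchors of at least 10 kb. In knockout it ranked 89 by called intrachromosomal partners, a place shared by 63 anchors, 74 by interchromosomal partners and 169 by linking PETs.

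**Figure D2:**
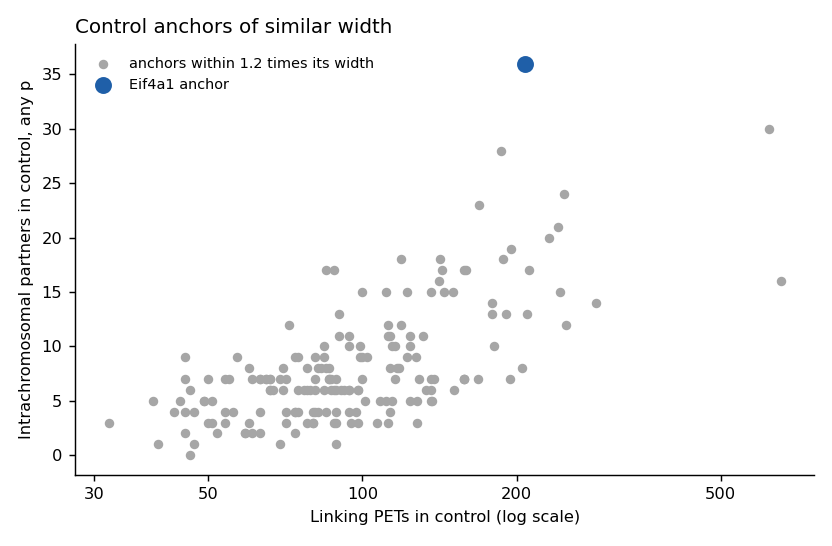
Intrachromosomal partners, called or not (y axis), against linking PETs on a log scale (x axis) for the 181 control anchors within 1.2 times the width of the Eif4a1 anchor, 1 point each. The large point, the Eif4a1 anchor, has 36 partners and 208 PETs, and the others have a median of 7 partners and 89 PETs.

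Partners on chromosome 11 lay on both sides of the anchor in control, 18 towards each end of the chromosome, and only towards higher coordinates in knockout, all 6. The gap between anchor and partner had a median of 13.7 Mb over the 36 control partners, 22.1 Mb over the 28 called ones, and 11.1 Mb over the 6 knockout partners. Over all intrachromosomal pairs the medians were 10.3 Mb in control and 4.55 Mb in knockout, and over all called ones 8.60 Mb and 3.93 Mb. Of the 36 control partners 4 lay under 0.1 Mb away, where 23.7% of all control pairs did, and 13 lay over 30 Mb away, or 36.1%, where 33.1% of all pairs did. In knockout 2 of 6 partners lay under 0.1 Mb away and none over 30 Mb, where 27.1% and 28.9% of all knockout pairs did.

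**Figure D3:**
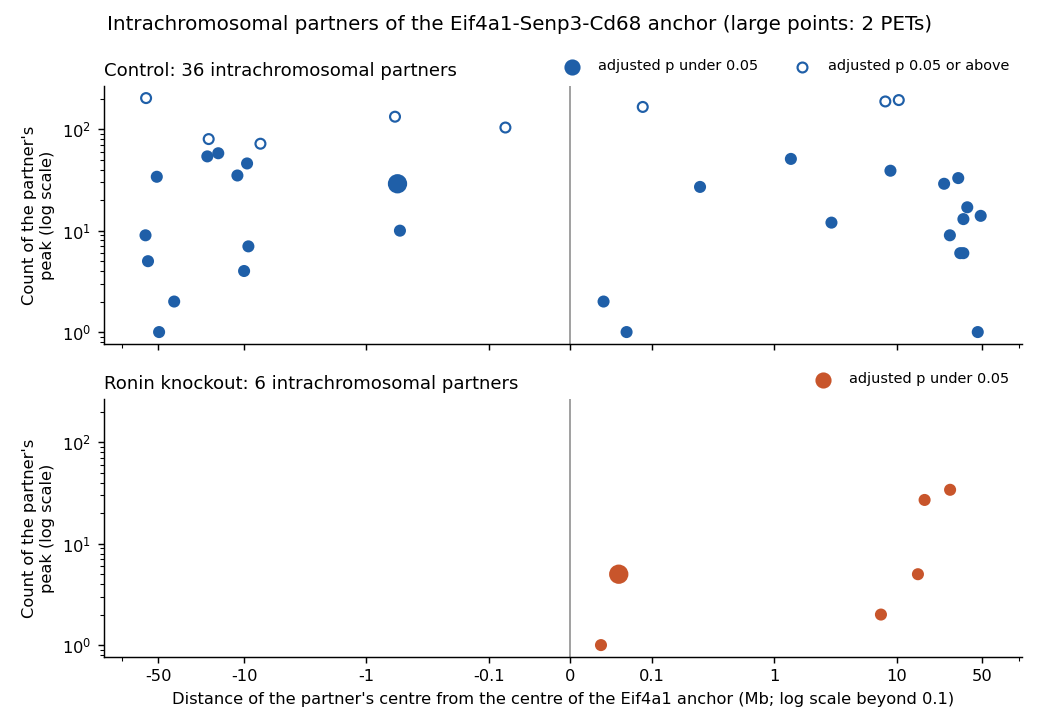
Partners on chromosome 11 in control (upper panel) and Ronin knockout (lower panel), by the distance of their centres from the centre of the Eif4a1 anchor in Mb, negative towards lower coordinates and on a log scale beyond 0.1 Mb, and by the deposited count of the partner's peak on a log scale. Filled points were called and open points were not, large points had 2 PETs and the others 1, and the 8 open points are the partners with the highest peak counts, 72 to 203.

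The nearest control partners flanked the anchor. A gene-free anchor at chr11:69510749-69511892 lay 10.3 kb away, beyond the start of Tnfsf12, and a gene-free anchor at chr11:69538606-69540440 lay 38.2 kb away. The anchor of Trp53, Wrap53 and Efnb3 at chr11:69369953-69412145 lay 29.0 kb away on the other side. Trp53 encodes the tumour suppressor p53, and Wrap53 runs from its other strand. The anchor of Polr2a and Amac1 at chr11:69541760-69576916 lay 41.3 kb away, and Polr2a encodes the largest subunit of RNA Pol II itself. Each of these pairs had 1 PET, and the Trp53 and Polr2a pairs were not called, with adjusted p of 0.07 and 0.11 in the authors' table. In knockout none of the 4 was a partner.

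Within 1 Mb control also joined the anchor to Neurl4 and 2810408A11Rik (211.6 kb), Hes7 and Aloxe3 (501.2 kb), Per1 and Vamp2 (515.3 kb) and Tmem107 (547.5 kb). Per1, a circadian clock repressor, and Vamp2, a vesicle fusion protein, shared an anchor at chr11:68900320-68925864, the only intrachromosomal partner with 2 PETs in control (adjusted p of 0.0015 in the authors' table). In knockout this place was still an anchor, with 18 linking PETs against 27 in control, and had no PET with the anchor of Eif4a1.

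Between 1 and 10 Mb the 8 control partners were the anchors of Dhx33, Derl2 and Mis12 (1.31 Mb), a gene-free anchor (2.89 Mb), Ncor1, Ttc19 and Zswim7 (7.28 Mb), Nufip2 and Cryba1 (7.99 Mb), Poldip2, Sarm1, Sebox, Tmem199, Tnfaip1 and Vtn (8.81 Mb), 4933439F18Rik (9.18 Mb), Rai1 and Srebf1 (9.40 Mb) and Mprip (9.96 Mb). Ncor1 encodes a co-repressor of nuclear receptors, and Srebf1 a regulator of lipid synthesis. Nufip2 encodes an RNA-binding protein that associates with FMRP, the relative of the Fxr2 product. From 10 to 30 Mb they were Suz12 and Crlf3 (10.3 Mb), Zfp692, Zfp672, Sh3bp5l and Gm9900 (11.3 Mb), Aff4, Uqcrq, Gdf9 and Leap2 (16.2 Mb), Sqstm1, Mgat4b and 3010026O09Rik (19.4 Mb), Cnot6 (19.9 Mb), Mbtd1 (24.3 Mb) and Skap1 (27.1 Mb). Suz12 encodes a core subunit of Polycomb repressive complex PRC2, Aff4 a scaffold of the super elongation complex, and Cnot6 a deadenylase of mRNA. Genes are named where any part of them lay within 1 kb of a partner. The starts of Ncor1, Aff4, Rai1, Tnfaip1, 4933439F18Rik, Crlf3, Zfp692, 3010026O09Rik, Mbtd1 and Skap1 did not. Among the nearer and farther control partners on chromosome 11, those of Hes7, Zmiz2, Gpatch8, Urgcp and of Cdc27 at its anchor without Myl4 did not either. These contacts are therefore not shown to be at the promoters of these genes. The Suz12 anchor shared an identical stretch of at least 100 bp with the anchor of Eif4a1.

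Beyond 30 Mb the 13 control partners were Psme3, Aoc2 and Aoc3 (31.7 Mb), Gpatch8 (32.9 Mb), a pair of anchors at Cdc27, the second with Myl4 (34.9 Mb both), Sh3pxd2b (37.2 Mb), Nol11 (37.5 Mb), Cdr2l (45.7 Mb), a gene-free anchor (48.3 Mb), a gene-free anchor (49.4 Mb), Etaa1 (51.6 Mb), Tns3 (60.9 Mb), Zmiz2, Ppia and H2afv (63.1 Mb) and Urgcp (63.8 Mb). Nol11 encodes a nucleolar protein of ribosomal RNA processing, and Cdc27 a subunit of the anaphase-promoting complex.

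The 6 knockout partners were other anchors. The nearest was at chr11:69507855-69510306, 5.57 kb away, over the start of Tnfsf12 and BC096441, with 1 PET and a peak count of 1. The next, a gene-free anchor at chr11:69526326-69535376, lay 24.0 kb away and had 2 PETs, the only such pair of the anchor in knockout (adjusted p of 0.00018 in the authors' table). In control that place had 10 linking PETs and none with the anchor of Eif4a1. The others had 1 PET each: Ccdc55 (7.38 Mb), Aatf (14.8 Mb), Rnft1 and Rps6kb1 (16.8 Mb) and Cbx1 and Nfe2l1 (27.1 Mb). Aatf encodes a nucleolar factor of ribosome maturation, Rps6kb1 the S6 kinase that phosphorylates translation factors, and Cbx1 the heterochromatin protein HP1 beta. The starts of Rps6kb1 and Ccdc55 did not lie within 1 kb of their partner anchors.

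Which control partners were called followed the count of the partner's peak. The 28 called partners had peak counts from 1 to 58, with a median of 12.5, and widths with a median of 9.45 kb. The 8 that were not called had peak counts from 72 to 203, with a median of 149.5, and widths with a median of 42.2 kb. These were Zmiz2, Sqstm1, Ncor1, Tmem107, Trp53, Polr2a, Nufip2 and Suz12 anchors, each with 1 PET. The interchromosomal partners split likewise, with peak counts from 1 to 98 for the 121 called and from 70 to 500 for the 49 not called. The lowest adjusted p among intrachromosomal pairs with 1 PET, 0.0025 in control, belonged to partners whose whole peak count was 1.

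None of the 36 control partners on chromosome 11 was a partner in knockout, which allows a share of up to 9.74%, where 4.82% of all control intrachromosomal pairs were found again in knockout at both ends. None of the 6 knockout partners was one in control either (up to 45.9%), where 11.9% of all knockout pairs were. The places themselves mostly stayed anchors. Of the 36 control partners 30, or 83.3% (67.2 to 93.6), overlapped an anchor in knockout, against 88.1% of the ends of all control pairs. The partners had 1651 linking PETs with any anchor in control, and their places had 623 in knockout. Of 170 interchromosomal partners 145, or 85.3% (79.1 to 90.3), overlapped a knockout anchor, against 90.4%, with 9653 linking PETs in control and 3479 in knockout.

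Among interchromosomal partners 3 of 170, or 1.76% (0.365 to 5.07), were partners in both libraries, where 0.992% of all control interchromosomal pairs were found again. Seen from knockout they were 3 of 54, or 5.56% (1.16 to 15.4), where 2.90% of all its interchromosomal pairs were. They included Rbm26 on chromosome 14, an RNA-binding protein, and Ube2d2 with Gm16490 on chromosome 18, a ubiquitin-conjugating enzyme. Neither of these pairs was called in control, with adjusted p of 0.052 for Rbm26 and 0.059 for Ube2d2 in the authors' table, and both were called in knockout. Each of the 3 had 1 PET with the anchor in each library. No gene start lay within 1 kb of the Rbm26 partner in either library. The Ube2d2 anchor (chr18:35924572-35965401) had 85 linking PETs with any anchor in control and 26 in knockout, and the Rbm26 anchor (chr14:105491588-105568029) 67 and, over its 4 knockout anchors, 24. The only interchromosomal pair with 2 PETs joined the anchor in control to that of Refbp2 and B930036N10Rik on chromosome 1 (chr1:173427663-173436352), whose own linking PETs were 98 in control and 36 in knockout.

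Interchromosomal partners lay on 19 other chromosomes in control and 17 in knockout. Chromosomes 4, 7 and 17 held most in control, with 18, 15 and 14 partners, or 10.6%, 8.82% and 8.24%. Of all control interchromosomal pairs with an end on chromosome 11, 7.13%, 7.64% and 5.38% went there. In knockout chromosomes 2 and 4 held 6 partners each, and chromosomes 12 and 17 held none. The 14 control partners on chromosome 17 and 0 in knockout stand beside a share of 4.85% of all knockout pairs of chromosome 11 that went there.

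**Figure D4:**
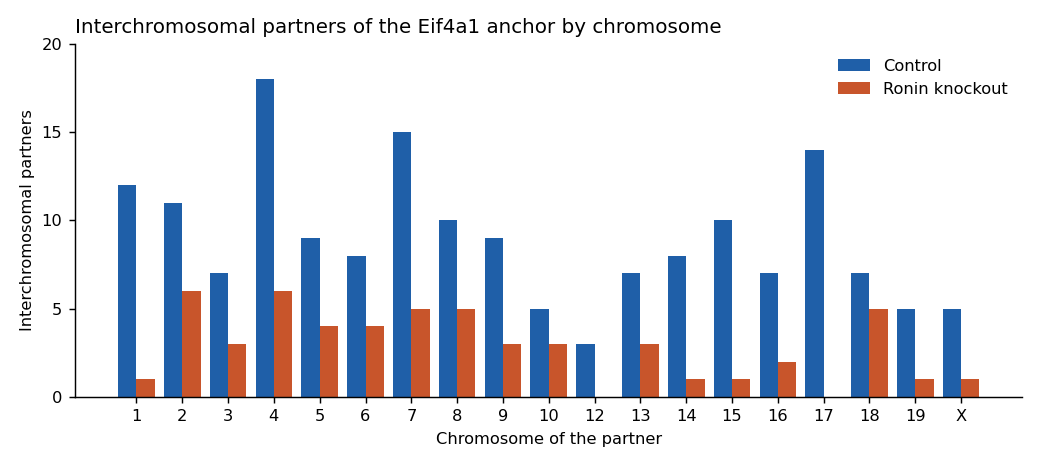
Number of interchromosomal partners of the Eif4a1 anchor (y axis) on each other chromosome (x axis), as bars for control (170 in all) and Ronin knockout (54 in all). Chromosome 4 has the tallest control bar, 18, and chromosome 17 has 14 in control and none in knockout.

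In control 150 of the 170 interchromosomal partners had a protein-coding gene within 1 kb, and these genes are given by chromosome, a few left out, each joined by 1 PET unless stated above. Any part of a gene counted, and 98 of the 170 had a gene start within 1 kb. Chromosome 1 gave Cspp1, Nop58, Pecr, Cul3, Dyrk3 with Eif2d, Phlda3, Prrc2c, Brp44 with Dcaf6, Refbp2, and Hnrnpu with Fam36a. Nop58 is a core protein of box C/D small nucleolar particles and Hnrnpu a nuclear RNA-binding protein. Chromosome 2 gave Mrps2, Psmd14, Slc25a12, Hat1, Cops2, Eif2s2 with Raly and the agouti gene, Rpn2 and Gmeb2. Eif2s2 encodes the beta subunit of translation initiation factor eIF2. Chromosome 3 gave Ndufb5, Lhfp, D930015E06Rik, Snx27, Fubp1 with Dnajb4 and Nexn, and Usp33 with Zzz3. Chromosome 4 gave Chd7, Asph, Mob3b, Anp32b, Txn1, Dennd4c, Acer2, Jun, Mknk1 with Mob3c, Nasp with Akr1a4, Ccdc17 and Gpbp1l1, Gm1661, Rlf, Ppie with Bmp8b, Ephb2, Eif4g3 with Hp1bp3, Pink1 and Plekhg5. Mknk1 is a kinase of eIF4E, Eif4g3 a scaffold of eIF4F and Jun an AP-1 transcription factor.

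Chromosome 5 gave Srpk2, Srp72 with Paics and Ppat, Mob1b, Sec31a, Snrnp35 with Rilpl1 and Rilpl2, Stx1a, Mospd3 with Pcolce, and Pdgfa with 6330403L08Rik. Chromosome 6 gave Trim24, Zc3hav1, Itpr1, Rpl32 with Cand2, Tpi1 with Spsb2 and Usp5, Tm7sf3 and Dennd5b. Rpl32 encodes a protein of the large ribosomal subunit and Tpi1 the glycolytic enzyme triosephosphate isomerase. Chromosome 7 gave AU018091, Vasp with Opa3, Ceacam19, 1500002O20Rik, Tgfb1 with Axl, Ccdc97 and Hnrnpul1, Akt2, Polr2i with Ovol3, Tbcb and Wdr62, Abhd2, Kif7 with 5730590G19Rik, Spcs2, Trim34a with Trim6, Ndufab1 with Ears2 and Ubfd1, Tnrc6a, and Cd2bp2 with Mylpf, Sept1, Tbc1d10b, Zfp553 and Zfp771. Polr2i encodes a small subunit of RNA Pol II. Chromosome 8 gave Slc20a2 with AI316807, Whsc1l1, Snx25, Hmgb2 with Galnt7, Gatad2a, Zfp827, Papd5, Ccdc102a, Cdt1 with Aprt, Fam38a, Galns and Gm20388, and Ankrd11. Chromosome 9 gave Mre11a with Ankrd49, 9030425E11Rik, Stag1, Wdr82 with Ppm1m and Twf2, and Atrip with Ccdc51 and Ccdc72.

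Chromosome 10 gave P4ha1, Ptbp1 with BC005764, Stk11 with Atp5d, Dos and Midn, Chpt1, and Pan2 with Ankrd52, Cnpy2, Coq10a and Cs. Chromosome 12 gave Pum2, Strn3 and Arid4a with Psma3. Chromosome 13 gave 3 anchors in the cluster of replication-dependent histone genes, Hist1h1b and Hist1h4i among them, and Arrdc3, Rps23, and Cenpk with Ppwd1. Rps23 encodes a protein of the small ribosomal subunit. Chromosome 14 gave Pdhb with Pxk, Dnahc12, Ccdc66 with D14Abb1e, Pspc1 with Mphosph8, Mtmr9, Msra and Rbm26. Chromosome 15 gave Dnajc21, Zfp706, Azin1, Ext1, Ndrg1, Triobp, Fam113b, and Atf1 with Dip2b. Chromosome 16 gave Mgrn1 with Fam100a and 4930562C15Rik, Pdxdc1, Wdr53, Tfrc, Zfp148 and Cxadr.

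Chromosome 17 gave Dll1, Glo1, Rsph1, Brd2 with H2-DMa, Abhd16a, Hsp90ab1 with Nfkbie and Slc35b2, Rab5a with 4921523A10Rik, Tnfaip8l1 with D17Wsu104e, Uhrf1 with Arrdc5 and Kdm4b, Kdm4b with Ptprs, Gtf2f1 with Alkbh7, Clpp, Khsrp, Pspn and Slc25a41, and Dlgap1. Brd2 encodes a reader of acetylated histones and Hsp90ab1 a cytosolic HSP90 chaperone. Chromosome 18 gave Esco1, Ctnna1 with Lrrtm2, Ube2d2, Taf7 with Slc25a2, Cdo1, and Seh1l with Cep192. Chromosome 19 gave Fau and Cdca5 with 11 further genes, Nxf1 and Taf6l with 6 further genes, Cox15 with Cutc, and Pdcd4. Chromosome X gave Pdzd4, Stard8 and Rps4x.

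In knockout 51 of the 54 interchromosomal partners had such a gene, again given with a few left out. Chromosome 1 gave the chaperonin genes Hspd1 and Hspe1 with Coq10b. Chromosome 2 gave Thnsl1 with Enkur, Nsfl1c, Asxl1, E2f1 with Cbfa2t2, Necab3, 1700003F12Rik and 1700007I08Rik, and Adrm1 with Lama5. Chromosome 3 gave Snx16 and 2810407C02Rik. Chromosome 4 gave Mcart1, Nfyc, Grik3, Rps6ka1 and Eno1. Nfyc encodes a subunit of NF-Y, the factor that binds CCAAT boxes, and its anchor shared an identical stretch of at least 100 bp with the anchor of Eif4a1. No gene start lay within 1 kb of the Nfyc partner. Chromosome 5 gave Eif2b4 with Gtf3c2, Mpv17, Ppm1g, Snx17, Trim54, Ucn and Zfp513, Dynll1 with Coq5, Plbd2 with Sds, and Mcm7 with Ap4m1, Cops6, Taf6 and Zfp113. Chromosome 6 gave Chl1 and Eno2 with Atn1, Grcc10 and Ptpn6. The Chl1 anchor, 0.944 kb wide, had a peak count of 2576, and was the 1 knockout partner that was not called.

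Chromosome 7 gave Cebpg with Pepd, Blm, Rab30, Arhgef17 and Tead1. Chromosome 8 gave Hook3 with Fnta, Hgsnat and 4930444A02Rik, Eif4ebp1 with Adrb3 and Got1l1, Upf1 with Gdf1 and Lass1, Cnot1 with Ndrg4 and Setd6, and Def8 with Gm20388. Eif4ebp1 encodes a repressor that binds eIF4E, and Upf1 the helicase of nonsense-mediated decay. Chromosome 9 gave Idh3a, Myo5c and Pgm3, chromosome 10 A230046K03Rik, Tbk1, and Cdk4 with March9 and Tspan31, and chromosome 13 Pitrm1, B3galnt2, and Eef1e1 with Gm17729. Chromosome 14 gave Rbm26, chromosome 16 Mkl2 and Kpna1, and chromosome 18 Galnt1, Wdr33 with Sft2d3, Ube2d2, Smad7 and Pias2. Chromosome 19 gave Csf2ra, and chromosome X Magt1 with Atp7a and Cox7b. Pias2 is a SUMO ligase, the opposite activity to that of Senp3, and no gene start lay within 1 kb of its partner anchor.

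Of the members of the pathway lists below, Pdcd4 and Eif4g3 lay at control partners and Eif4ebp1 at a knockout partner. Pdcd4 encodes an inhibitor that binds eIF4A directly. Its anchor (chr19:53997933-54003728) had a peak count of 6, the Eif4g3 anchor (chr4:137765269-137777868) 9 and the Eif4ebp1 anchor (chr8:28311398-28395519) 88. Each was joined to the anchor of Eif4a1 by 1 PET in 1 library. No gene start lay within 1 kb of the Pdcd4 partner, and only that of Hp1bp3 lay within 1 kb of the Eif4g3 partner. The Trp53 and Polr2a anchors were the only other partners with listed genes.

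Partners at gene starts were counted beside the ends of all pairs of the same kind in the library. In control 25 of 36 intrachromosomal partners, or 69.4% (51.9 to 83.7), had a protein-coding gene start within 1 kb, against 63.6% of the ends of all intrachromosomal pairs. Of interchromosomal partners 98 of 170 did, or 57.6% (49.8 to 65.2), where 68.2% of the ends of all interchromosomal pairs lay above that interval. Those partners were also less linked, with a median of 20 linking PETs against 34 over all ends. In knockout 4 of 6 and 37 of 54, or 68.5% (54.4 to 80.5), had a gene start, against 65.2% and 71.8%. An exact Ronin-binding motif lay in 1 of 36 and 3 of 170 control partners, the latter at Stk11, Pan2 and Ceacam19, and in 0 of 60 knockout partners. These shares, 2.78% and 1.76%, stood beside 2.67% and 2.64% over the ends of all control pairs, and the 0 of 6 and 0 of 54 in knockout beside 2.74% and 3.02%.

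Some partners were joined to each other as well. Of 630 possible pairs among the 36 control partners on chromosome 11 there were 8, or 1.27%, each with 1 PET, and 240 of 21115 possible pairs over all 206 partners, or 1.14%. Over all control anchors 0.0579% of possible intrachromosomal pairs and 0.0333% of all possible pairs were joined, where the median anchor had 3 linking PETs and the median partner of the Eif4a1 anchor 27 on chromosome 11 and 20 elsewhere. Tmem107 took part in 4 of the 8, with Ncor1, Hes7, Polr2a and Suz12, and Nufip2 in 3, with Zfp692, Per1 and Polr2a. Polr2a with Suz12 was the last. In knockout 0 of 15 and 6 of 1770, or 0.339%, were joined, against 0.0589% and 0.0288% over all knockout anchors.

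The 5 anchors most like this one, by the smallest Euclidean distance over log2 (number + 1) of intrachromosomal and interchromosomal partners in both libraries (4 values), were those of Taf12 on chromosome 4 and, on chromosome 11, Cdk12 with Med1, Nufip2 with Cryba1, Polr2a with Amac1 and Zbtb4, and Npm1 with Fgf18. The Taf12 anchor, at a distance of 0.727, had 24 and 188 partners of the 2 kinds in control and 7 and 71 in knockout. The Npm1 anchor, the fifth at 0.838, had 21 and 199 in control and 5 and 62 in knockout. The likeness is one of partner numbers only, and the Polr2a anchor lies next to this one.

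Within 500 kb of the anchor 38 other merged anchors had 664 linking PETs in control and 269 in knockout, or 40.5% (35.0 to 46.7), near the 41.8% of the whole library. Of these, 25 had fewer PETs in knockout, 9 more and 4 the same number. The Trp53 anchor had 110 and 47 PETs, 42.7% (29.7 to 60.6), and the Polr2a anchor 166 and 66, 39.8% (29.4 to 53.2). The anchor of Eif5a, Gps2 and Neurl4 had 104 and 30, 28.8% (18.5 to 43.7), close to the anchor of Eif4a1. The anchor of Cyb5d1, Kdm6b, Lsmd1 and Tmem88 went the other way, with 13 and 19 PETs, 146.2% (68.5 to 322), an interval that holds equality. A gene-free anchor 6.52 kb wide, between Tnfsf12 and Polr2a, had 14 PETs in control and 0 in knockout.

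**Figure D5:**
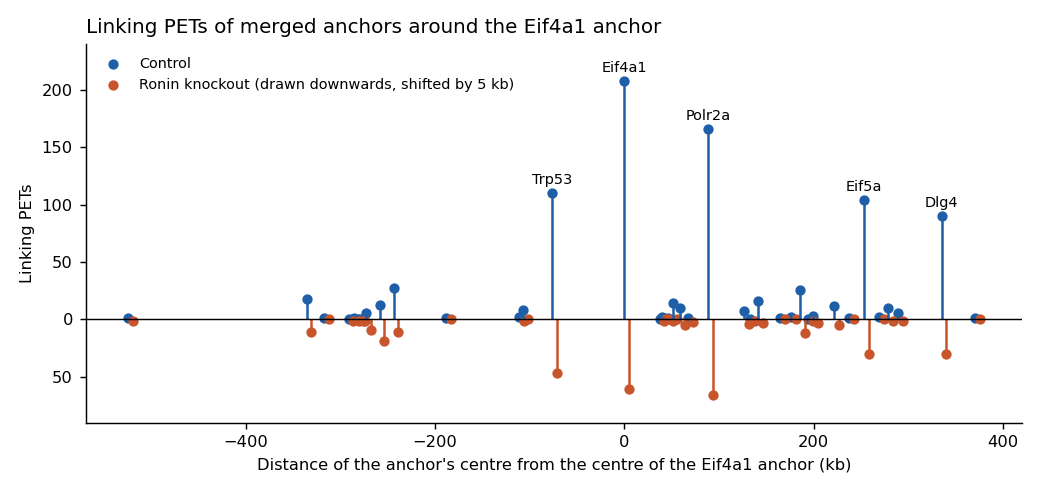
Linking PETs (y axis) of the merged anchors within 500 kb, by the distance of their centres from the centre of the Eif4a1 anchor in kb (x axis), with control drawn upwards and Ronin knockout downwards and shifted by 5 kb. The tallest lines are Eif4a1 (208 and 61), Polr2a (166 and 66), Trp53 (110 and 47) and Eif5a (104 and 30).

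Pathway relatives of the genes were counted by called intrachromosomal PETs on anchors within 1 kb of the gene, where 73.0% of 9663 genes with such PETs had fewer in knockout. All 8 genes of the anchor had 29 in control and 7 in knockout, since they share it. Each list with a gene of the anchor holds that value and counts the gene as having fewer. The value rests on the partners that the anchor was chosen for. Counted at gene starts within 1 kb, 7 of the 8 genes had fewer and 1 had more, where the start of Tnfsf12 lay outside the anchor in both libraries. Of 13 genes of eIF4F and its regulators 11 had fewer in knockout and 2 the same number, with sums of 86 and 29. Eif4a2, a second eIF4A helicase, had 8 and 1, Eif4a3, the exon junction helicase, 4 and 0, Eif4g2 10 and 2, Eif4e, the cap-binding protein, 3 and 0, and Eif4ebp1 10 and 8. Of 13 genes on the SUMO pathway list 10 had fewer, 2 more and 1 the same number, with sums of 76 and 29. Sumo2 had 9 and 5 and Uba2, a subunit of the activating enzyme, 7 and 2. Senp8, which is listed by its name and does not encode a SUMO protease, had 0 and 2.

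Of the 6 genes of the ribosome maturation complex that SENP3 joins 5 had fewer and 1, Las1l, more (0 and 1). Npm1, nucleophosmin, had 14 and 5, Wdr18 9 and 1 and Pelp1 6 and 4. Of 5 genes of the FMR1 family list with PETs 4 had fewer and 1 the same number, and Fxr1 had 4 and 3. Of 12 genes of the dolichol-linked mannose pathway 7 had fewer, 3 more and 2 the same number, with Dpm1 at 8 and 4. Of 5 genes with PETs on the list of TWEAK and APRIL ligands and receptors 3 had fewer and 2 more. Of the 3, Tnfsf12 and Tnfsf13 carry the value of the chosen anchor itself, and Tnfrsf13c, a receptor of neither ligand, had 1 and 0. Tnfrsf12a, the TWEAK receptor, had 3 PETs in control and 17 in knockout, and with interchromosomal pairs added 31 and 27. Of 4 lysosomal membrane genes with PETs 3 had fewer and 1 more, with Lamp1 at 5 and 1 and Lamp2 at 6 and 3. Of 5 Sox genes with PETs 3 had fewer, 1 more and 1 the same number, with Sox2 at 4 and 1.

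Of 10 genes of the neighbouring stretch with PETs 5 had fewer and 5 more, with sums of 54 and 53. Several shared an anchor, so the sums count some PETs more than once. Trp53, Wrap53, Efnb3 and Atp1b2 had the same 8 knockout PETs, those of a shared anchor. Counted by anchor and over all pairs, the other anchors within 500 kb of the Eif4a1 anchor had 664 PETs in control and 269 in knockout. Polr2a had 14 and 6 and Trp53 10 and 8. Kdm6b, a histone H3 lysine demethylase, had 2 and 5, and Atp1b2 2 and 8, where the knockout anchor of Trp53 reached Atp1b2 and the control one did not. With interchromosomal pairs added, 88.9% of 12749 genes had fewer PETs in knockout. On that count Eif4a1 and the other genes of the anchor had 200 and 61. All 13 genes on the eIF4F list and all 13 on the SUMO list had fewer, and 11 of 12 dolichol pathway genes did.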

How the data were processed

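RNA Pol II ChIA-PET was measured in mouse ESCs, 1 merged library per condition. The authors kept reads with linker, merged the experiments of a condition and used the mm9 build; the submitters' processing notes name cutadapt, Bowtie 1.1.1 (mapping) and MACS 1.4.2 (peaks). The deposited tables list pairs of peaks with counts of PETs, a count for each peak that mostly equals its linking PETs, and a distance score. They also hold p-values with BH-adjusted p-values computed by the authors. The distance score was not used here, and no count model or test was run, since each condition has 1 library.

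Starts were converted from 0-based to 1-based. An anchor belonged to the hub if it overlapped the interval by 1 bp or more. Genes within 1 kb came from GENCODE vM1. Distances are gaps between anchor edges. Merged anchors are overlapping anchors of both libraries taken as 1. Intervals are exact Poisson, Clopper-Pearson or conditional binomial intervals at 95%, for counting error only. PETs with the same ends had been collapsed by the authors. Most contacts rest on 1 PET in both libraries, 98.3% of pairs in control at 156097 PETs and 97.9% in knockout at 65276. Promoter sequences are RefSeq windows of GRCm38.p6. The counting steps were tested on simulated data. Python 3.11.15 was used with numpy 2.4.6, pandas 2.3.3, scipy 1.17.1 and matplotlib 3.10.9.

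The genes named were the 8 of the anchor, those at every intrachromosomal partner, interchromosomal partners with at least 2 PETs or found in both libraries, and the lists. Nearly all other interchromosomal partners were named too, and a few items are not reported here. The tolerance of 1.2 times for similar anchors was set after the data were seen. Anchor, genes and lists were chosen with earlier results of these data known. Alternatives covered the minimum of PETs, the call, the overlap, the interval, shared sequence, scaling, gene distance, lists and motif mismatches.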

Additional observations from a re-analysis of the deposited data

How the results depend on the processing

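Of 90 alternative values for 26 results, 55 stayed within 1.5 times a count or inside the interval of a ratio or share, and 35 moved. With at least 2 PETs per pair hardly anything was left. Control kept 1 intrachromosomal and 1 interchromosomal partner with 2 PETs each, and knockout 1 intrachromosomal partner with 2 PETs and 0 interchromosomal partners and PETs. The median distance became 0.515 Mb in control and 0.0240 Mb in knockout, the share of partners at a gene start 100% (from 58.1%) and 0% (from 68.3%), and the knockout PETs 50% of control, while 0 partners were found in both libraries and the control rank fell to 218. Members with fewer PETs in knockout then numbered 0 of the anchor's genes, 2 of eIF4F, 1 of SUMO, 1 of the SENP3 complex, 0 of FMR1, 0 of the dolichol pathway, 0 of TWEAK and APRIL, 1 of LAMP and 1 of Sox. With intrachromosomal pairs of any p the control median distance was 13.7 Mb in place of 22.1 Mb. Scaling the 30.5% by total PETs gave 72.9%, and by the median of shared anchors 71.1%. Extending partners by 5 kb gave 6 partners found in both libraries in place of 3. Ranked per 10 kb of width the anchor stood at 2424 in control and 4131 in knockout. With gene starts in place of gene bodies 3 SENP3 complex and 4 dolichol pathway members had fewer PETs, and with interchromosomal pairs added 11 dolichol pathway, 5 LAMP and 5 Sox members. Each moved value follows from the pairs, scale or width that its alternative uses. The motif count was 0 with and without 1 mismatch. No paired analysis was possible because each condition is 1 merged library, and for the same reason no replicate could be left out. A contact with 1 PET in 1 library and 0 in the other differs by 1 PET, and at this depth such a difference was not detectable as a change.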
